A study of Canis lupus familiaris with 13 samples.

Results

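Leiomodins, LIM-domain-only (FHL) proteins and stretch-responsive ankyrin repeat genes of dog skeletal muscle are described here in biopsies taken with and without insulin stimulation. The set was defined as 10 gene symbols: LMOD2, LMOD3, FHL1, FHL2, FHL3, ANKRD1, ANKRD2, ANKRD23, CSRP3 and XIRP1. Of these, 9 had a row among the 30951 genes of the count table, and each of the 9 symbols occurred in 1 row, so the rule of taking the row with most raw counts for a repeated symbol was never needed. No row used here carried the symbol ANKRD23, and that gene was not analysed here. All 9 genes passed the filter on low counts, which left 14629 genes to test. The genes were chosen by name with earlier results of these libraries known, among them the lower LMOD2 level with insulin, so tests that share those libraries are not independent evidence for LMOD2.

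Gene expression was measured by RNA sequencing of the biceps femoris, a thigh muscle, in 13 libraries from 4 wild-type dogs aged 9 to 10 months. Insulin-stimulated libraries were labelled sample 1 (dogs 1 to 4, n = 4), sample 2 (dogs 1 to 4, n = 4) and sample 3 (dogs 1 and 2, n = 2), and basal libraries were labelled sample 0 (dogs 2, 3 and 4, n = 3). Biopsies were taken under local anaesthesia through a small skin incision and frozen at once. The labels do not say what separates samples 1, 2 and 3 or how insulin was given. Nor do they say whether libraries of 1 dog came from separate biopsies. With the dog as a block, p-values measure only the spread between these libraries within dogs, not between animals. In insulin against basal, insulin libraries of the same dog count as separate, and only dogs 2, 3 and 4 are paired.

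Leiomodins and FHL proteins belong to the contractile lattice of striated muscle. Leiomodins add actin to the pointed ends of thin filaments, where tropomodulins cap them. The muscle ankyrin repeat proteins encoded by ANKRD1, ANKRD2 and ANKRD23 bind the spring region of titin and can also enter the nucleus, and they are known for high expression after stretch or injury. CSRP3 encodes muscle LIM protein, a Z-disc protein, XIRP1 encodes an actin-binding Xin repeat protein of muscle attachment sites, and FHL1, FHL2 and FHL3 are adaptors that bind sarcomere proteins and transcription factors.

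Library totals ranged from 45200416 to 81948641 counts. Levels are given as CPM, read counts scaled to a library total that was adjusted by the trimmed mean of M values (TMM) to offset a few dominant transcripts. ACTA1, the skeletal actin, took 18.4% of counts in dog 1 sample 2 and 10.4% to 13.7% in the other libraries. The summed level of 8 skeletal muscle markers was 242047 to 400230 CPM in insulin and 239772 to 312389 CPM in basal libraries. Dog 1 sample 2 also had the highest of these sums, the highest library total and the lowest TMM factor (0.811). Of 7 heart muscle markers 4 had a row, and their sum was 8.43 to 24 CPM in insulin and 8.34 to 20.7 CPM in basal libraries. Counts of a gene cannot be compared with those of another here, because no transcript lengths of the counted annotation were used.

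LMOD2, a leiomodin best known from the heart, fell in insulin sample 2 relative to basal sample 0. Its level in sample 2 was 7.56 CPM in dog 1, 10.4 CPM in dog 2, 5.17 CPM in dog 3 and 4.91 CPM in dog 4, against 31.9, 13.6 and 13.7 CPM in the basal libraries of dogs 2, 3 and 4. All 4 sample 2 libraries lay below all 3 basal libraries. LMOD2 was 1 of 9 genes with no overlap in this comparison, while 5.48% of all genes tested did not overlap. The log2 fold change was -1.50 ± 0.21 (SE; adjusted p = 0.0458, edgeR quasi-likelihood test with the dog as a block), and within dogs 2, 3 and 4 the log2 ratios were -1.62, -1.40 and -1.48. In this comparison 0.0479% of all genes passed (7 genes, of which 2 or 0.0137% higher and 5 or 0.0342% lower), and LMOD2 (ENSCAFG00000001775) ranked 5 by p among 14629. In bulk tissue, fewer cells of a type and less RNA per cell cannot be told apart.

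The adjusted p of LMOD2 stood close to the threshold of 0.05. It was above 0.05 in 10 of 13 fits with 1 library left out, while the log2 fold change stayed between -1.60 and -1.35. Without a sample 2 library it was 0.159 (dog 2), 0.193 (dog 3) and 0.233 (dog 4), and without a sample 1 library 0.0948, 0.0562, 0.113 and 0.0705 (dogs 1 to 4). Without a basal library it was 0.133, 0.147 and 0.182 (dogs 2, 3 and 4). Leaving out a whole dog gave 0.0498, 0.228, 0.469 and 0.432 (dogs 1 to 4), and without the dog block the log2 fold change was -1.49 (adjusted p = 0.445). Between the same libraries neutrophil markers had a median log2 fold change of -1.47 (5 tested, 0 positive, 0 past the threshold). An unadjusted p under 0.05 in edgeR was found for 3 of these 5, against 4.95% of all genes. Red blood cell markers had -1.02 (4 tested, 2 positive), and satellite cell and regenerating fibre markers had -0.79 (6 tested, 1 positive). Macrophage and monocyte markers had -0.60 (4 tested), fibroblast markers -0.43 (6 tested, 0 of them positive) and slow fibre markers -0.02 (10 tested), and 0 markers of these lists passed. The summed level of 6 red blood cell markers overlapped, at 39.6 to 44.6 CPM in sample 2 and 34.7 to 45.7 CPM in basal libraries. That of 6 neutrophil markers also overlapped, at 24.8 to 38.7 CPM in sample 2 and 30.0 to 73.0 CPM in basal libraries. The part of any of these lists in the result was not tested.

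Insulin sample 1 gave LMOD2 levels of 14.2, 13, 8.78 and 11.1 CPM in dogs 1 to 4, which overlap the basal range of 13.6 to 31.9 CPM. The log2 fold change of sample 1 against sample 0 was -0.69 ± 0.21 (adjusted p = 0.956), lower in 3 of 3 dogs. Both comparisons use the same 3 basal libraries. In sample 3 LMOD2 was at 11.1 CPM in dog 1 and 17.4 CPM in dog 2, above sample 2 of the same dog in both.

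Sample 2 against sample 1 sets insulin libraries of all 4 dogs against each other. Its fit still took the spread and the dog terms from all 13 libraries, basal ones included. LMOD2 was lower in sample 2 in 4 of 4 dogs, by log2 ratios of -0.92, -0.33, -0.77 and -1.17. Its unadjusted p of 0.00121 was the lowest of all 14629 genes in this comparison, yet the adjusted p was 0.902 (log2 fold change -0.81 ± 0.19), and edgeR and DESeq2 each called 0 genes (0% of those tested), with 495 and 597 genes at an unadjusted p under 0.05. The slow myosin MYH7 (-0.88 ± 0.26, adjusted p = 0.902) and the cardiac actin ACTC1 (-0.88 ± 0.28, adjusted p = 0.902) had log2 fold changes of similar size between these libraries. Both were chosen after their values were seen and do not stand for their lists. Of 11 thin filament partners, ACTC1 among them, 7 were positive (median 0.28). Slow fibre markers, MYH7 among them, had a median of -0.15 (10 tested, 3 positive). Endothelial markers had -0.66 (6 tested, 0 positive) and smooth muscle and pericyte markers -0.55 (10 tested, 0 positive), against -0.02 for all genes. None of these markers passed the threshold in edgeR, and their part in the LMOD2 difference was not tested.

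Over all 10 insulin libraries, LMOD2 ranged from 4.91 to 17.4 CPM (median 10.7), against 13.6 to 31.9 CPM (median 13.7, n = 3) in basal libraries. The ranges overlap. The log2 fold change was -1.01 ± 0.27 (adjusted p = 0.319), and it passed in edgeR only when no low-count filter was applied (-1.01, adjusted p = 0.00156). The basal library of dog 2 held the highest level, 31.9 CPM.

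LMOD3, the leiomodin of skeletal muscle whose loss causes nemaline myopathy in humans, kept a narrow range. It lay between 378 and 634 CPM in insulin libraries (median 439) and between 447 and 652 CPM in basal libraries (median 493). Its log2 fold change was -0.17 ± 0.16 in insulin against basal, -0.20 ± 0.18 in sample 1 against 0, -0.16 ± 0.19 in sample 2 against 0 and 0.05 ± 0.17 in sample 2 against 1, with adjusted p from 0.955 to 1. Both leiomodins were lower with insulin in 3 of 3 dogs on average, LMOD3 (ENSCAFG00000006531) by log2 ratios of only -0.25, -0.13 and -0.16. The share of all genes with 1 direction in every dog is not given. Such counts of dogs, for these and other members, were therefore not tested.

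**Figure D1:**
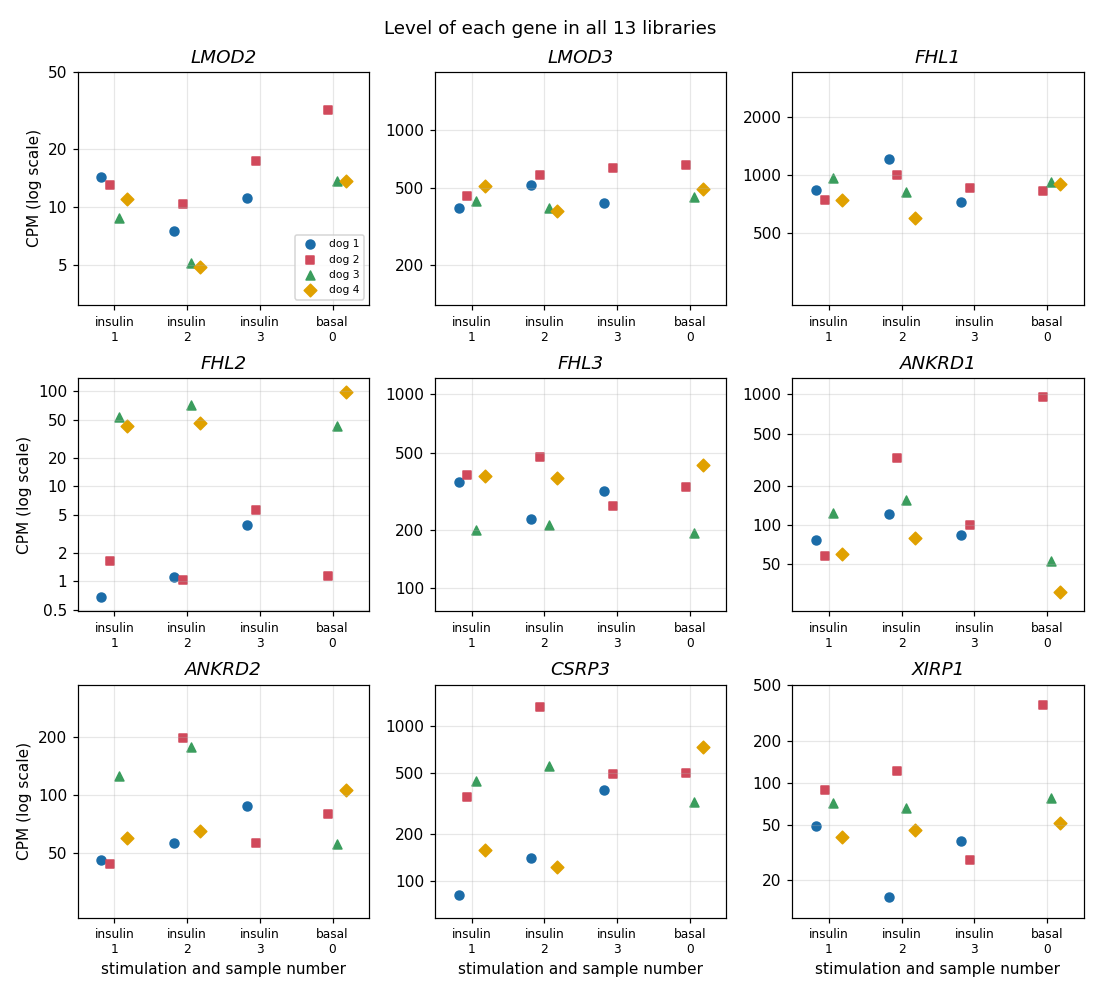
Level of each of the 9 genes in all 13 libraries, as CPM on a log scale whose range differs between panels, by stimulation and sample number; each point is 1 library and colours and shapes mark the dogs. LMOD2 sits lowest in insulin sample 2 (4.91 to 10.4 CPM), FHL2 splits by dog, and ANKRD1 and XIRP1 are highest in the basal library of dog 2 (949 and 361 CPM).

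Over the 9 genes, insulin against basal gave 0 calls in edgeR, where 0.137% of all genes passed (0.0273% higher and 0.109% lower), and 0 in DESeq2, with 2 of the 9 at an unadjusted p under 0.05 in each, against 4.12% of all genes in edgeR. None of the 9 had insulin and basal libraries that did not overlap, against 0.93% of all genes. The median log2 fold change of the 9 was -0.17, against 0.00 for all genes, with 3 positive and 6 negative. Sample 1 against sample 0 gave 0 calls among the 9 with either tool, 1 of 9 at an unadjusted p under 0.05 in each, a median of -0.25 against -0.01 for all genes, and 0% of all genes past the threshold in edgeR, with 2.99% at an unadjusted p under 0.05. None of the 9 was without overlap there, against 3.66% of all genes. Sample 2 against sample 0 gave 0 higher and 1 lower (LMOD2), with a median of -0.16 against -0.02 and 1 of 9 at an unadjusted p under 0.05, against 4.95% of all genes. In sample 2 against sample 1 the median was 0.11 against -0.02, 6 were positive, and 1 of 9 in edgeR and 2 of 9 in DESeq2 had an unadjusted p under 0.05, against 3.38% of all genes in edgeR. None of the 9 was without overlap in that comparison, against 1.9% of all genes.

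**Figure D2:**
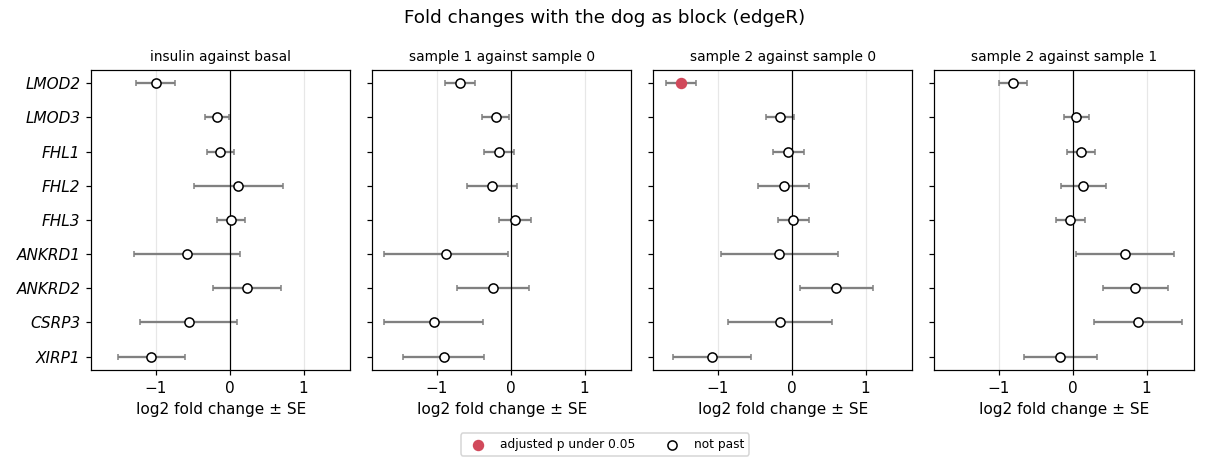
Log2 fold change of each gene with its SE in the 4 comparisons, each panel named with the group on top first; filled points have an adjusted p under 0.05. LMOD2 in sample 2 against sample 0 (-1.50) is the filled point, and ANKRD1 and CSRP3 have the widest SE among the 9 in all 4 comparisons.

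FHL2, an FHL protein abundant in heart, differed mainly between dogs. Dog 3 had 53.2, 72.1 and 42.4 CPM in samples 1, 2 and 0, and dog 4 had 43.2, 46.1 and 97.3 CPM. FHL2 was at 0.681, 1.1 and 3.95 CPM in samples 1, 2 and 3 of dog 1, and at 1.66, 1.04 and 5.58 CPM in samples 1, 2 and 3 and 1.15 CPM in sample 0 of dog 2. The lowest library of dogs 3 and 4 stood 7.59-fold above the highest of dogs 1 and 2. In raw counts the libraries of dogs 3 and 4 held from 1922 to 4213 reads of FHL2 (ENSCAFG00000002105), and those of dogs 1 and 2 from 45 to 326.

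A test of the dog terms over all genes, added after these values were seen, gave FHL2 an F statistic of 105 (adjusted p = 9.09e-05, edgeR, 13 libraries), with rank 3 by p among 14629 genes. It called 3.13% of all genes, and FHL2 was 1 of 9 in the set. FHL2 stayed past the threshold in all 13 fits with 1 library left out, with adjusted p up to 0.00127, and in all 4 fits with 1 dog left out, with adjusted p up to 0.0163. LMOD2 (F = 9.65, adjusted p = 0.0590) and FHL3 (F = 7.23, adjusted p = 0.109) came next among the 9. LMOD2 passed without dog 2 sample 1 (0.0333), dog 1 sample 2 (0.0468) or all of dog 1 (0.0470), and FHL3 without dog 1 sample 2 (0.0165) or all of dog 1 (0.0147). Libraries of 1 dog share the animal, so this test sets dogs against the spread within dogs and does not describe any wider difference between animals.

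The summed level of 10 slow fibre markers was also higher in dogs 3 and 4, at 39632 to 58141 CPM, than in dogs 1 and 2, at 22166 to 37616 CPM. Medians of these libraries differed 1.34-fold for the slow fibre sum and 43.3-fold for FHL2. FABP3, a fatty acid carrier of oxidative muscle, overlapped between them, with 453 to 1121 CPM in dogs 3 and 4 and 317 to 1181 CPM in dogs 1 and 2. The part of fibre type in the FHL2 level was not tested.

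**Figure D3:**
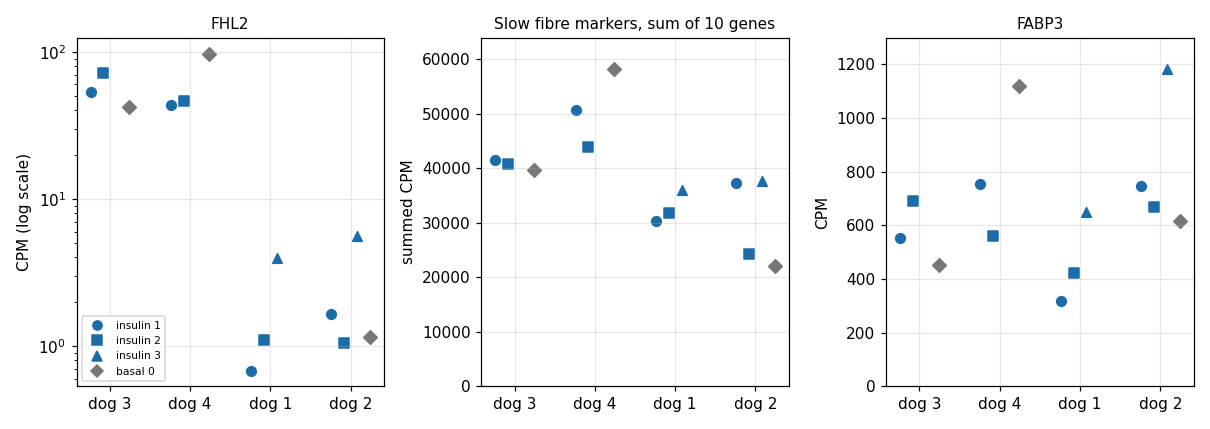
FHL2 (CPM, log scale), the sum of 10 slow fibre markers (CPM) and FABP3 (CPM) by dog; each point is 1 library, shapes mark the sample number and grey marks basal. FHL2 lies at 42.4 to 97.3 CPM in dogs 3 and 4 and at 0.681 to 5.58 CPM in dogs 1 and 2, while FABP3 overlaps between all dogs.

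Insulin showed no common direction for FHL2. Within dogs the log2 ratio of the insulin mean over basal was 0.89 in dog 2, 0.55 in dog 3 and -1.12 in dog 4, and the fit gave 0.11 ± 0.60 (adjusted p = 1). That value turned to -1.04 without the dog block (adjusted p = 0.999). In dogs 1 and 2, sample 3 held more FHL2 than sample 2, with log2 ratios of 1.85 and 2.42.

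FHL1, the abundant FHL protein of skeletal muscle whose human mutations cause X-linked myopathies, ranged from 604 to 1208 CPM in insulin libraries and from 825 to 925 CPM in basal libraries. FHL3, known in mouse myoblasts as a partner of MyoD, ranged from 198 to 475 CPM in insulin libraries and from 193 to 430 CPM in basal libraries. In insulin against basal their log2 fold changes were -0.13 ± 0.18 and 0.02 ± 0.19 (adjusted p = 1 for both). Dog 3 was low in FHL3 (ENSCAFG00000003210) in every library, at 198, 211 and 193 CPM in samples 1, 2 and 0, while dog 4 had 379, 370 and 430 CPM.

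ANKRD1, which encodes the cardiac ankyrin repeat protein, was dominated by 1 basal library. Sample 1 had 76.4, 57.8, 123 and 59.9 CPM in dogs 1 to 4, and sample 2 had 121, 325, 157 and 80.1 CPM. Sample 3 had 84.6 CPM in dog 1 and 101 CPM in dog 2. Basal libraries had 949 CPM in dog 2, 53.5 CPM in dog 3 and 30.7 CPM in dog 4. The basal level was thus the highest of its dog in dog 2 and the lowest of its dog in dogs 3 and 4.

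The log2 fold change of ANKRD1 (ENSCAFG00000007247) in insulin against basal was -0.58 ± 0.72 (adjusted p = 1), and without dog 2 sample 0 it was 1.29 (adjusted p = 1). Within dogs the log2 ratios of the insulin mean over basal were -2.94 in dog 2, 1.37 in dog 3 and 1.17 in dog 4. In sample 2 against sample 1 ANKRD1 was higher in 4 of 4 dogs, by log2 ratios of 0.66, 2.49, 0.35 and 0.42, and the fit gave 0.71 ± 0.67 (adjusted p = 0.902), or 0.26 without dog 2 sample 1. The early response factor EGR1 stood at 129 CPM in dog 2 sample 0 and between 1.13 and 4.97 CPM in the other 12 libraries. The part of this library's state in the ANKRD1 difference was not tested.

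ANKRD2, the ankyrin repeat protein found mainly in slow fibres, was not, unlike ANKRD1, highest in the basal library of dog 2. It was at 46.2, 44.2, 125 and 60.1 CPM in sample 1 of dogs 1 to 4, at 56.7, 196, 177 and 65.1 CPM in sample 2, at 87.6 and 56.5 CPM in sample 3 of dogs 1 and 2, and at 79.6, 56.0 and 106 CPM in sample 0 of dogs 2, 3 and 4. Sample 2 exceeded sample 1 in 4 of 4 dogs, with log2 ratios of 0.30, 2.15, 0.50 and 0.12. That comparison gave 0.85 ± 0.44 (adjusted p = 0.902), with 0.37 without dog 2 sample 2 and 0.33 without all of dog 2, and insulin against basal gave 0.24 ± 0.46 (adjusted p = 1).

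CSRP3, the muscle LIM protein, spanned 16.6-fold among insulin libraries. Sample 1 held 80.5, 347, 444 and 159 CPM in dogs 1 to 4, sample 2 held 140, 1334, 555 and 123 CPM, and sample 3 held 387 and 493 CPM in dogs 1 and 2. Basal libraries held 497, 323 and 737 CPM in dogs 2, 3 and 4. Dog 4 was lower in both insulin libraries than in its basal library, by log2 ratios of -2.21 and -2.59, while dog 3 was higher in both, by 0.46 and 0.78. The fit for insulin against basal gave -0.56 ± 0.66 (adjusted p = 1) for CSRP3 (ENSCAFG00000009424), and 0.58 without dog 4 sample 0.

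XIRP1 (ENSCAFG00000028862) was, like ANKRD1, highest in the basal library of dog 2. Sample 1 had 48.7, 88.3, 71.8 and 40.5 CPM in dogs 1 to 4, sample 2 had 15.1, 120, 65.4 and 45.7 CPM, and sample 3 had 37.9 and 27.9 CPM. Basal libraries had 361 CPM in dog 2, 78.0 CPM in dog 3 and 51.4 CPM in dog 4. XIRP1 was lower with insulin in 3 of 3 dogs on average, by log2 ratios of -2.44, -0.19 and -0.26. Its fit gave -1.06 ± 0.45 (adjusted p = 1), and it passed in edgeR only when no low-count filter was applied (-1.06, adjusted p = 2.58e-05). Without dog 2 sample 0 the log2 fold change was -0.22, and without all of dog 2 it was also -0.22.

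The library of dog 2 sample 0 thus combined the highest ANKRD1, XIRP1, LMOD2 and LMOD3 levels of the series with CSRP3 at 497 CPM and ANKRD2 at 79.6 CPM, values inside the range of the other libraries. The library of dog 2 sample 2 held the highest ANKRD2 and CSRP3. The map of deviations sets each library against the mean of its own dog.

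**Figure D4:**
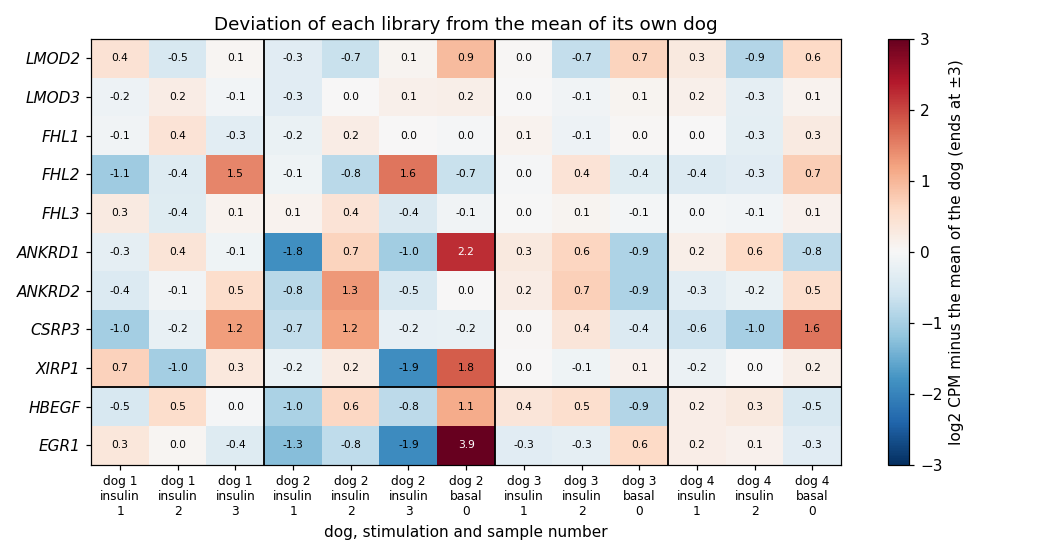
Log2 CPM of each library minus the mean of its own dog for the 9 genes and, below the line, for HBEGF and EGR1; red is above and blue below the dog's mean, and the colour scale ends at ±3. Dog 2 basal stands out for ANKRD1 (2.2), XIRP1 (1.8) and EGR1 (3.9), while dog 2 insulin 2 is the highest cell for ANKRD2 (1.3), and for CSRP3 dog 4 basal (1.6) is above dog 1 insulin 3 and dog 2 insulin 2 (1.2 each).

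The set divided by how much its members varied among libraries of the same dog. After subtracting each dog's mean, the SD of log2 CPM was 1.17 for ANKRD1, 1.00 for CSRP3, 0.98 for XIRP1, 0.95 for FHL2, 0.74 for ANKRD2 and 0.67 for LMOD2. It was 0.26 for FHL3, 0.25 for FHL1 and 0.21 for LMOD3, and the median of all genes tested was 0.41. Because low counts are noisier, each gene was also set beside genes whose mean level lay within 2-fold of its own. ANKRD1 varied more than 99.6% of such genes, XIRP1 more than 99.1%, CSRP3 more than 98.3%, ANKRD2 more than 97.2% and LMOD2 more than 92.9%. FHL3, FHL1 and LMOD3 varied more than 48.9%, 43.6% and 24.2% of theirs. These values pool the dogs, and the XIRP1 spread came from dogs 1 and 2, with a log2 SD of 0.89 and 1.52. In dogs 3 and 4 XIRP1 had 0.13 and 0.17, no wider than FHL1 with 0.13 and 0.29, so the division did not hold for XIRP1 there. The ANKRD1 mean of 171 CPM, used for this comparison, was 106 CPM without dog 2 sample 0. FHL2 is left out of this comparison, because its mean of 28.4 CPM comes from dogs 3 and 4, while its log2 SD was 0.38 and 0.65 in dogs 3 and 4 and 1.28 and 1.1 in dogs 1 and 2, where its mean was 2.16 CPM.

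**Figure D5:**
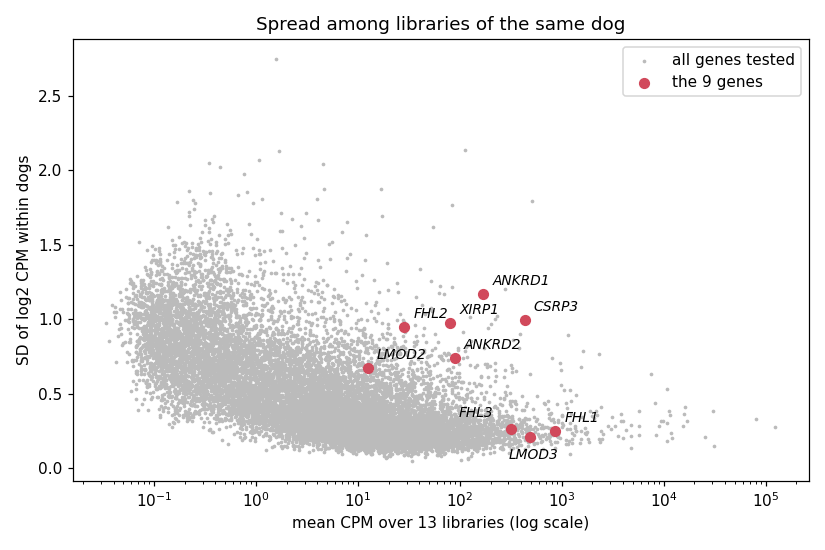
SD of log2 CPM among libraries of the same dog against mean CPM (log scale) for all genes tested (grey) and the 9 genes (red). ANKRD1, CSRP3, XIRP1 and ANKRD2 lie near the upper edge at their level, FHL2 is placed at a mean set by dogs 3 and 4, and FHL1, FHL3 and LMOD3 lie in the main cloud.

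Pairs of the 9 genes were compared by Pearson's r of log2 CPM after removing each dog's mean, over 13 libraries that share dogs and are not independent. ANKRD2 and CSRP3 had r = 0.79 (Spearman's rho 0.80), LMOD3 and FHL1 had r = 0.71 (rho 0.67), and ANKRD1 and XIRP1, both highest in dog 2 sample 0, had r = 0.54 (rho 0.33), which was 0.03 without that library. FHL3 and XIRP1 had r = 0.56, and 0.96 without dog 2 sample 0. Both lay lowest against their dog's mean in dog 2 sample 3 (-0.42 and -1.86) and dog 1 sample 2 (-0.37 and -1.01). Their r without these low libraries was not computed. ANKRD1 and ANKRD2 had r = 0.48 (rho 0.67), and 0.69 without dog 2 sample 0. LMOD2 and ANKRD1 had r = -0.02, and -0.71 without that library. LMOD2 and LMOD3 had r = 0.47.

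The genes most like each member by this measure were sought among 8270 others with a symbol. How high the best r among so many genes would be by chance was not tested. Nearest to LMOD2 was ASB4, a substrate receptor of a ubiquitin ligase (r = 0.93), followed by the kinesin KIF13B (0.88) and the chromatin regulator ATF7IP (0.85). These genes were picked for likeness to LMOD2 over the same libraries, so a lower level in sample 2 is not independent evidence. In sample 2 against sample 0 they had log2 fold changes of -0.92 ± 0.16 (adjusted p = 0.134), -0.52 ± 0.17 (0.754) and -0.95 ± 0.15 (0.0614). ASB4 was at 4.98, 7.79, 10.3 and 12 CPM in sample 2 of dogs 1 to 4, against 17.4, 18.2 and 21.0 CPM in the basal libraries of dogs 2, 3 and 4.

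Nearest to ANKRD1 were HBEGF, a growth factor that binds the epidermal growth factor receptor (r = 0.95), the muscle heat shock protein HSPB3 (0.92) and the guidance cue SEMA3A (0.87). HBEGF reached 81.9 CPM in dog 2 sample 0, and without that library the r with ANKRD1 was 0.95 for HBEGF, 0.84 for HSPB3 and 0.72 for SEMA3A. ANKRD2 was nearest to C7H1orf21 (0.96), FAM114A2 (0.94) and the ankyrin ANK1 (0.92). CSRP3 was nearest to the transcription factor CREB5 (0.93), AHI1 (0.91) and PPM1K, a mitochondrial phosphatase of branched-chain amino acid breakdown (0.91).

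FHL2 was nearest to FABP3 (0.93), the small GTPase RAB1A (0.92) and LDHB, the heart-type lactate dehydrogenase subunit (0.92), a likeness within dogs that leaves the difference between dogs aside. The highest FHL2 deviations, 1.46 in dog 1 sample 3 and 1.61 in dog 2 sample 3, came from dogs where FHL2 was scarce (0.681 to 5.58 CPM). FABP3 (649 and 1181 CPM) and LDHB (310 and 463 CPM) were also highest of their dog in these libraries. XIRP1 was nearest to the phosphatase CTDP1 (0.94), the pseudokinase TRIB1 (0.93) and HTT (0.93). FHL3 was nearest to the kinase DAPK2 (0.97), SNX19 (0.96) and FREM2 (0.96). In dog 1 sample 2 and dog 2 sample 3, DAPK2 was at 27.3 and 26.0 CPM, SNX19 at 37.1 and 44.5 CPM and FREM2 at 2.29 and 2.26 CPM. These were the lowest levels of each in the series, and FHL3 was also lowest against its dog's mean there. CTDP1 and HTT were lowest in the same libraries. No r without these libraries was computed. LMOD3 was nearest to PALMD (0.90), C10H12orf45 (0.89) and SLC35B1 (0.88), and FHL1 to the autophagy gene WIPI2 (0.91), TUBE1 (0.90) and CDK5RAP1 (0.90).

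Other genes of the same machinery were taken from 4 lists. Among close relatives of the members, 6 of 9 had a row and 0 passed in any of the 4 comparisons, with a median log2 fold change of -0.01 in insulin against basal. CSRP1 had 0.48 ± 0.32 and XIRP2, the other Xin repeat gene, had -0.41 ± 0.37 (adjusted p = 1 for both). Among 11 thin filament partners 0 passed in any comparison (median 0.06 in insulin against basal). The capping protein CAPZB had -0.27 ± 0.20, and KLHL41, a Kelch protein of the sarcomere, had -0.24 ± 0.23 (adjusted p = 1 for both).

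Of 20 titin spring and Z-disc partners 0 passed in any comparison (median -0.03 in insulin against basal). PALLD, the actin bundler palladin, had -0.87 ± 0.26 (adjusted p = 0.506), with 159 CPM in dog 2 sample 0 and 24.7 to 63.4 CPM in the other 12 libraries. The co-chaperone BAG3 had -0.36 ± 0.22 (adjusted p = 1). Of 16 genes of mechanical and SRF or YAP regulated transcription 0 passed in any comparison (median -0.04 in insulin against basal). EGR1 had -2.89 ± 0.82 (adjusted p = 0.453), with 129, 2.15 and 1.18 CPM in the basal libraries of dogs 2, 3 and 4. Insulin libraries held 1.13 to 4.97 CPM of EGR1, so its fold change rested on dog 2 sample 0. The scarce YAP target CCN1 had -1.51 ± 0.55 (adjusted p = 0.864). CCN1 was at 0 to 0.658 CPM in insulin libraries and 1.73, 0.280 and 0.30 CPM in the basal libraries of dogs 2, 3 and 4. All these calls are from edgeR with the dog as a block, and at an unadjusted p under 0.05 insulin against basal counted 0 relatives, 0 thin filament partners, 1 of 20 Z-disc partners and 4 of 16 genes of mechanical transcription, against 4.12% of all genes. Sample 2 against sample 1 counted 0 of 6 relatives, 3 of 11 thin filament partners, 4 of 20 Z-disc partners and 0 of 16 genes of mechanical transcription, against 3.38% of all genes.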

How the data were processed

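The authors deposited 1 table for all 13 libraries, with raw read counts per gene as whole numbers and, per the file headers, a normalized signal. The signal equals the deposited count divided by the library's median-of-ratios size factor and was not used for tests. Libraries were made with SMART-Seq v4 and Nextera XT, per the labels' protocols, and these kits do not mark strand, so a count can include an overlapping gene. Bowtie 0.12.2 and CanFam3.1 are named in the submitters' processing notes. The counting program and annotation release are not given in the sources used here. Columns were matched to samples by the headers in the labels.

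Counts were fitted in R 4.3.3 with edgeR 4.0.16 (filterByExpr, TMM, robust quasi-likelihood), with terms for dog and stimulation, or dog and sample number. Dog 1, without a basal library, added to the insulin against basal fit only through the spread. Adjusted p-values are Benjamini-Hochberg over all 14629 genes, threshold 0.05. The SE was taken from the fold change and F. The script was tested on simulated data. The pairing comes from the dog named in each title. Deviations from group means had a median r of 0.17 over 15 pairs of libraries of 1 dog and -0.07 over 47 pairs of different dogs. No libraries agreed within sampling noise (chi-square per gene at least 58.2).

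The members, gene lists and comparisons were chosen with earlier results of these data known. Named genes were all members, the listed genes past the threshold or else the 2 of lowest p in insulin against basal, and the 3 genes most like each member with a mean log2 CPM (prior count 2) of at least 1. ACTC1, MYH7 and the library values of EGR1, HBEGF, PALLD, ASB4 and FABP3 were chosen after their values were seen. The same holds for the library values of DAPK2, SNX19, FREM2, CTDP1, HTT and LDHB. DESeq2 1.42.0, other scaling, no filter, no dog block, summed insulin libraries and leaving out libraries or dogs were the alternatives.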

Additional observations from a re-analysis of the deposited data

Results flagged for a closer look

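In 27 groups of 4 or 10 libraries examined for a library far from the others in CPM, 3 were found. The limit used is nominally passed by chance in about 1 in 20 groups of independent values, a rate not measured here, and insulin libraries share dogs. FHL3 in insulin sample 1 was at 198 CPM in dog 3, against 351 CPM in the nearest of the other 3 dogs. ANKRD1 was at 325 CPM in dog 2 sample 2, and the next of the 10 insulin libraries was at 157 CPM. CSRP3 was at 1334 CPM in the same library, and the next insulin library was at 555 CPM. On the log2 scale the gap to the nearest library was 0.87 of the group's range for FHL3, 0.42 for ANKRD1 and 0.31 for CSRP3, so ANKRD1 and CSRP3 were within the limit for 10 libraries there. The log2 scale was added after the values were seen.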

How the results depend on the processing

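Fold changes and counts of calls in the 4 comparisons were recomputed with other scaling, with DESeq2, without the filter, without the dog block, and with 1 library or 1 dog left out (17 fits), and insulin against basal also with insulin libraries summed per dog. The test between dogs had no DESeq2 fit and no fit without the block. Spreads and overlaps were not recomputed, and correlations only without dog 2 sample 0. LMOD2 kept its negative direction in all of these in all 4 comparisons. Its call in sample 2 against 0 held with DESeq2 size factors (adjusted p = 0.0376), DESeq2 (6.14e-07) and no filter (0.000655). It was lost without the replicate block of dogs, so 0 members passed. Leaving out a library or dog gave 0 to 1 members past in that comparison. Members past between dogs were 1 to 3 on leaving out, and 3 without the filter, where insulin against basal had 2. Genes past the threshold, against 20, 0, 7 and 0 in the order insulin against basal, sample 1 against 0, 2 against 0 and 2 against 1, were 104, 40, 73 and 0 with DESeq2. Without the filter the first 3 were 140, 16 and 28. Without the replicate block insulin against basal had 6 and sample 2 against 0 had 0. Summing gave 1, and DESeq2 size factors gave 4 in sample 1 against 0. On leaving out a library or dog the counts were 4 to 28, 0 to 8, 0 to 13 and 0, and 79 to 625 between dogs, against 458 there and 793 without the filter.

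Log2 fold changes that changed sign belonged to members not past the threshold. Leaving out a library or dog, insulin against basal ranged from -1.32 to 1.29 for ANKRD1, -0.23 to 0.79 for ANKRD2, -1.16 to 0.59 for CSRP3, -0.23 to 0.018 for FHL1, -0.36 to 0.91 for FHL2 and -0.061 to 0.13 for FHL3. Sample 1 against 0 ranged from -1.84 to 1.04 for ANKRD1, -0.81 to 0.30 for ANKRD2, -1.72 to 0.062 for CSRP3, -0.28 to 0.0011 for FHL1, -0.59 to 0.33 for FHL2, -0.039 to 0.19 for FHL3 and -1.26 to 0.077 for XIRP1. Sample 2 against 0 ranged from -0.92 to 1.79 for ANKRD1, -0.98 to 0.95 for CSRP3, -0.24 to 0.18 for FHL1, -0.52 to 0.49 for FHL2 and -0.18 to 0.14 for FHL3. Sample 2 against 1 ranged from -0.069 to 0.25 for FHL1, -0.12 to 0.41 for FHL2, -0.23 to 0.16 for FHL3, -0.10 to 0.21 for LMOD3 and -0.54 to 0.28 for XIRP1. Without the replicate block FHL2 (-1.04) and FHL3 (-0.0043) in insulin against basal, and CSRP3 (0.052) and FHL1 (0.040) in sample 2 against 0, changed sign, and summing gave ANKRD1 0.15. The causes were not tested. The lowest member count was 45 reads (FHL2), where counting error is widest.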

Other observations

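ANKRD39 is a gene next to ANKRD23 in the RefSeq annotation of the dog (assembly UU_Cfam_GSD_1.0, used only for the order of genes). It was at 539, 825, 626 and 443 CPM in insulin sample 1 of dogs 1 to 4, at 581, 1385, 925 and 618 CPM in sample 2, at 820 and 624 CPM in sample 3 of dogs 1 and 2, and at 1181, 401 and 544 CPM in the basal libraries of dogs 2, 3 and 4. As with ANKRD2 and CSRP3, its highest level was in dog 2 sample 2. Whether this row holds reads of ANKRD23 was not tested.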
